A study of Ovis aries with 41 samples.

Results

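Elastic fibre genes and latent TGF-beta binding proteins (LTBPs) were followed along the tail skin of sheep. The 10 genes were the fibrillins FBN1 and FBN2, elastin (ELN), LTBP1, LTBP2, LTBP3 and LTBP4, fibulin-5 (FBLN5) and the microfibril-associated proteins MFAP4 and MFAP5. They were taken by symbol from a table of read counts for 31182 RefSeq genes, and all 10 were among the 19444 genes with enough counts to be tested along the tail. The skin came from 7 adult rams of the Improved Jezersko-Solčava breed, sampled after slaughter at the tail base, the mid-tail and the tail tip. Of these rams, 4 were homozygous for the ancestral HOXB13 allele (A/A, short tail) and 3 for the derived allele with an insertion in the promoter (D/D, long tail). The genotype is natural variation within 1 breed, no ram was treated, and the tip of a D/D tail lies farther from the base than the tip of an A/A tail. Each ram gave 2 libraries per position, except the mid-tail of D/D ram 871869 with 1, for 41 libraries in all. Counts of libraries from the same skin site were added up, which gave 21 ram sums with the ram as the replicate throughout.

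Elastic fibres give skin its recoil. Fibrillins polymerise into microfibrils, on which elastin is laid down and cross-linked by lysyl oxidases, while fibulins and MFAPs join elastin, microfibrils and cells. LTBPs are built like fibrillins and sit on the same microfibrils. Most of them hold TGF-beta in the matrix in its latent form, and LTBP4 and FBLN5 also act together in laying down elastin.

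Levels are given as CPM, the counts of a gene per 1000000 counts of the TMM-scaled ram sum. They depend on gene length and are compared between samples only, not between genes. Values of the A/A rams are given in the order 835507, 871772, 871784 and 871932, and those of the D/D rams in the order 871787, 871868 and 871869. Changes are log2 fold changes with standard errors from edgeR's quasi-likelihood test with the ram as a block, and a gene passed at a Benjamini-Hochberg adjusted p under 0.05 over all genes tested.

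Library totals ran from 9177395 to 23431409 counts. The keratinocyte genes KRT5 (4140 to 9470 CPM) and KRT14 (3050 to 9630 CPM) and the collagen gene COL1A1 (443 to 9970 CPM) were high in every ram sum, as the label skin implies, while the bone gene IBSP was at 0 and the skeletal muscle gene CKM was at most 0.804 CPM. Over 12626 genes, the median correlation of a library with the others was 0.946, and 7 libraries fell under 0.9. All 7 were among the 24 A/A libraries and none among the 17 D/D libraries, so every A/A change and every comparison of the genotypes holds them. They were both mid-tail and both tip libraries of ram 835507 (0.819 to 0.865), 2 libraries of ram 871772 and library 2 of the mid-tail of ram 871784. Library 2 of the mid-tail of A/A ram 871784 had 15.7 CPM of its total for LTBP3, 19.6 for LTBP4 and 7.83 for MFAP4, against 86.2, 92.5 and 36.2 CPM in library 1 of the same skin. The mid-tail values of these 3 genes in that ram rest on that pair.

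The 10 genes lie on 8 chromosomes of ARS-UI_Ramb_v3.0, the build of the files. FBN1 (chromosome 7, 59766618 to 60043865) and LTBP2 (chromosome 7, 83872432 to 83984376) share one chromosome. LTBP1 (chromosome 3, 90570648 to 91024900) and MFAP5 (chromosome 3, 206817679 to 206829449) share another. FBN2 is on chromosome 5 (23263268 to 23492427), MFAP4 on chromosome 11 (33837163 to 33839683) and LTBP4 on chromosome 14 (49308908 to 49335912). FBLN5 is on chromosome 18 (54376822 to 54469287), LTBP3 on chromosome 21 (40160333 to 40179996) and ELN on chromosome 24 (33738523 to 33770964).

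Along the tail, 2 of the 10 genes passed the test. LTBP2 rose from base to tip in A/A rams (log2 fold change 0.77, SE 0.18, adjusted p = 0.0381), where 317 of 19444 genes, or 1.63%, passed. MFAP5 fell from base to tip over the 7 rams (-0.83, SE 0.16, adjusted p = 0.00636), where 878 genes, or 4.52%, passed. The other genes did not pass in either comparison. In bulk skin, fewer cells of a type and less RNA per cell cannot be told apart, and this holds for every change given here. No gene of the set passed at the tip of D/D rams (0.566% of all genes), at the mid-tail of A/A rams (0.0257%), D/D rams (0%) or all 7 rams (0.134%), or from mid-tail to tip over the 7 rams (0.0257%). At an unadjusted p under 0.05 in edgeR these comparisons held 5, 2, 2, 2 and 1 of the 10 genes, beside 12.3%, 10.1%, 6.74%, 11.1% and 5.37% of all genes. DESeq2 on the same sums called 1, 1, 0, 0 and 1 of the 10, beside 525, 146, 40, 265 and 124 of all 19444 genes. The tip and mid-tail comparisons share their base samples.

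**Figure D1:**
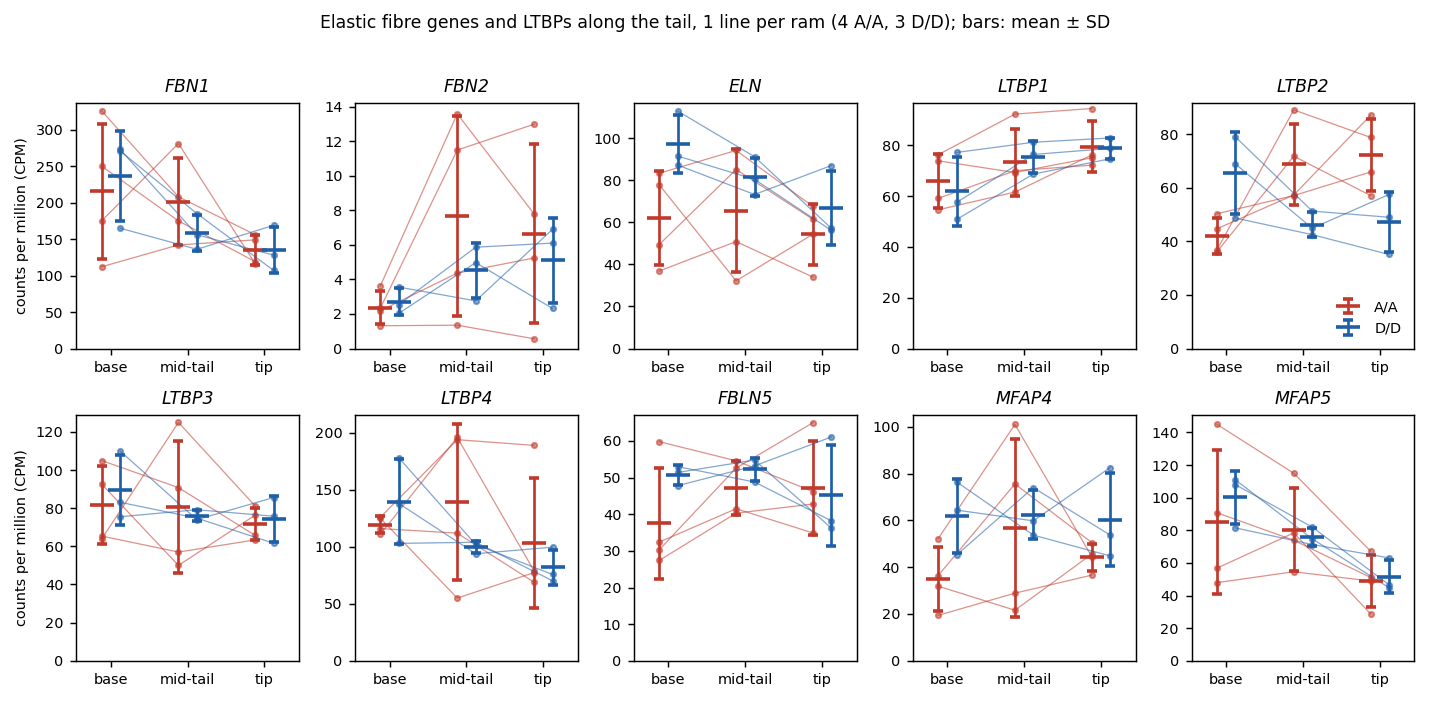
Levels in CPM at the 3 tail positions, 1 line for each ram (A/A red, n = 4; D/D blue, n = 3) and the mean ± SD of each genotype as bars. For LTBP2 both distal points lie above the base in the 4 A/A rams (mean 42.0 CPM at the base and 72.2 CPM at the tip) and below it in the 3 D/D rams (65.5 and 47.2 CPM), with no shared direction from mid-tail to tip, and MFAP5 is lower at the tip than at the mid-tail in each of the 7 rams.

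FBN1 encodes the main fibrillin of adult microfibrils. At the base it stood at 175, 326, 250 and 112 CPM in the A/A rams and at 271, 165 and 273 CPM in the D/D rams. At the mid-tail the values were 281, 208, 175 and 142 CPM in A/A and 185, 136 and 156 CPM in D/D. The tip gave 116, 156, 119 and 149 CPM in A/A and 107, 169 and 128 CPM in D/D. The tip values are the lower and more even ones, but A/A ram 871932 and D/D ram 871868, lowest of their genotypes at the base, were not lower at the tip. The mean over the 7 rams was 225 ± 75.5 CPM (SD, n = 7) at the base and 135 ± 23.1 CPM at the tip. The change over the 7 rams was -0.69 (SE 0.20, adjusted p = 0.067), with 5 of 7 rams lower (exact sign-flip permutation test, two-sided p = 0.0625). Within the genotypes it was -0.59 (SE 0.27, adjusted p = 0.322) in A/A and -0.79 (SE 0.31, adjusted p = 0.289) in D/D.

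FBN2, the fibrillin known mainly from embryonic tissue, was counted little, with 17 to 370 reads in a ram sum. At the base it lay between 1.32 and 3.64 CPM in the 7 rams. The mid-tail gave 1.35, 13.6, 4.37 and 11.5 CPM in A/A and 5.87, 2.76 and 4.98 CPM in D/D. The tip gave 0.564, 7.80, 5.25 and 13 CPM in A/A and 6.11, 6.91 and 2.32 CPM in D/D. Thus 6 of 7 rams were higher at the tip than at the base, and A/A ram 835507 was lower, at 17 reads. The change over the 7 rams was 0.96 at the tip (SE 0.33, adjusted p = 0.114) and 1.05 at the mid-tail (SE 0.33, adjusted p = 0.239), and the exact sign-flip p was 0.0469 for both. A/A rams had 1.07 at the tip (SE 0.45, adjusted p = 0.277) and 1.34 at the mid-tail (SE 0.44, adjusted p = 0.334). D/D rams had 0.85 at the tip (SE 0.48, adjusted p = 0.499) and 0.77 at the mid-tail (SE 0.49, adjusted p = 0.774). With 1 ram left out, the change at the tip over the remaining rams lay between 0.70 (without A/A ram 871932, adjusted p = 0.366) and 1.23 (without A/A ram 835507, both of whose tip libraries stood apart, adjusted p = 0.0185), and the second was the only omission that made it pass. The A/A tip change of 1.07 was 0.56 without ram 871932 (adjusted p = 0.783) and 1.61 without ram 835507 (adjusted p = 0.0657).

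ELN encodes the elastic core of the fibre. The base values were 36.9, 83.4, 77.9 and 49.5 CPM in A/A and 113, 87.3 and 91.6 CPM in D/D, so every D/D ram lay above every A/A ram there. The share of all genes separated like this was not counted, and 0% of 17738 genes passed between the genotypes at the base in edgeR. The tip gave 34.0, 67.6, 54.4 and 61.5 CPM in A/A and 57.2, 87.1 and 56.2 CPM in D/D, and the genotypes overlapped. No position change of ELN had an unadjusted p under 0.05. From base to tip, 6 of 7 rams were lower, with a mean change of -0.33 ± 0.44 in log2(CPM + 0.5) (SD, n = 7, exact sign-flip p = 0.109).

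LTBP1, which anchors latent TGF-beta in the matrix, differed little between base and tip, but in the same direction in each ram. At the base the levels were 59.1, 73.9, 76.3 and 54.6 CPM in A/A and 57.5, 50.8 and 77.2 CPM in D/D. The tip levels were 72.2, 75.1, 94.5 and 76.2 CPM in A/A and 78.8, 74.7 and 82.9 CPM in D/D. Each of the 7 rams was higher at the tip than at the base, by 0.022 to 0.551 in log2(CPM + 0.5). The exact sign-flip p of 0.0156 is the smallest that 7 rams allow, among 30 such tests over the 10 genes. In the fit over all genes the change was 0.32 (SE 0.09) and did not pass (adjusted p = 0.0507). It was 0.27 in A/A (SE 0.12, adjusted p = 0.283) and 0.37 in D/D (SE 0.13, adjusted p = 0.243). At the mid-tail the 7 rams had 0.23 (SE 0.09, adjusted p = 0.361), with 6 of 7 higher, and D/D rams alone had 0.30 (SE 0.13, adjusted p = 0.726). LTBP1 also had the narrowest spread of the 10 genes, with a highest ram sum 1.86 times the lowest.

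LTBP2, the member of the family that binds microfibrils but not latent TGF-beta, had levels that ran in opposite directions in the 2 genotypes. A/A rams had 44.7, 36.8, 50.3 and 36.1 CPM at the base, 57.3, 89.1, 57.1 and 71.8 CPM at the mid-tail and 87.1, 78.8, 65.9 and 57.1 CPM at the tip. D/D rams had 79.0, 68.9 and 48.7 CPM at the base, 51.3, 44.9 and 42.5 CPM at the mid-tail and 49.0, 57.5 and 35.1 CPM at the tip. Both distal positions were above the base in every A/A ram and below it in every D/D ram. At the mid-tail the genotypes did not overlap, while at the base and the tip the ranges overlapped at their edges. How many of all genes were separated in this way was not counted. Between the genotypes at the mid-tail, 0% of 17996 genes passed in edgeR. The mean in A/A went from 42.0 ± 6.79 CPM (SD, n = 4) at the base to 68.8 ± 15.2 CPM at the mid-tail and 72.2 ± 13.3 CPM at the tip. In D/D it went from 65.5 ± 15.4 CPM (SD, n = 3) to 46.2 ± 4.53 CPM and 47.2 ± 11.3 CPM.

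Besides the A/A tip, where LTBP2 passed, the fitted change was 0.71 at the A/A mid-tail (SE 0.18, adjusted p = 0.203), -0.47 at the D/D tip (SE 0.20, adjusted p = 0.346) and -0.48 at the D/D mid-tail (SE 0.20, adjusted p = 0.706). The test of the difference itself, D/D minus A/A, gave -1.24 at the tip (SE 0.27, unadjusted p = 0.000282, adjusted p = 0.5). For the mid-tail it gave -1.19 (SE 0.27, unadjusted p = 0.000439, adjusted p = 0.822). In order of p, LTBP2 was number 8 of 19444 genes for the tip and number 9 for the mid-tail. No gene passed for either difference (0% and 0%), although 1188 and 1013 genes had an unadjusted p under 0.05 in edgeR and DESeq2 on the same sums called 15 and 6. With DESeq2 on the ram sums, LTBP2 passed for the tip (adjusted p = 0.0257). Over the rams alone, the exact permutation test of the 4 A/A against the 3 D/D changes gave p = 0.0286 for the tip, the smallest this design allows, and p = 0.0571 for the mid-tail, among 30 such tests over the 10 genes. With 1 ram left out, the fitted difference stayed between -1.38 and -1.14 at the tip and between -1.37 and -1.02 at the mid-tail, and it did not pass (-1.18 and -1.28 without ram 835507). The A/A call at the tip is narrow. It was lost, at adjusted p between 0.0669 and 0.149, when any 1 ram other than 871784 was left out, while the change stayed between 0.67 and 0.81. Without ram 871784 it was 0.91 (adjusted p = 0.0308). The 2 libraries of a ram and position agreed closely for LTBP2, with a median difference of 0.129 in log2 over 20 pairs.

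**Figure D2:**
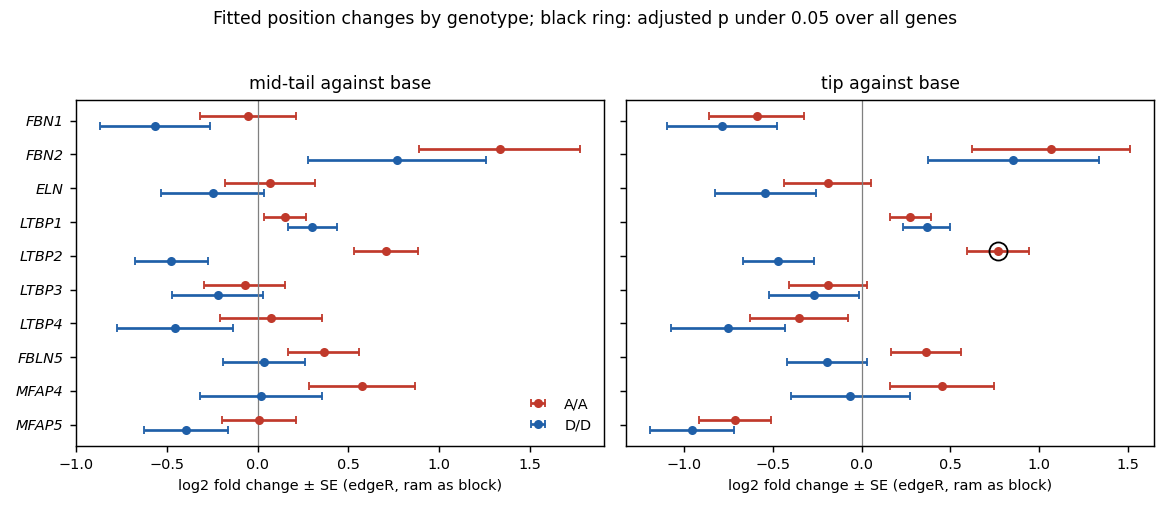
Log2 fold change ± SE of each gene at the mid-tail (left) and the tip (right) against the base, for A/A (red) and D/D (blue), with a black ring where the adjusted p over all genes was under 0.05. LTBP2 is the only gene with a ring (0.77 at the A/A tip), and its A/A and D/D points lie on opposite sides of 0 at both positions.

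Most smooth muscle markers had changes of the same sign as LTBP2. In A/A rams, 8 of the 10 markers of the list had a positive change at the tip and 9 at the mid-tail, while in D/D rams 2 did so at the tip and 2 at the mid-tail, and none passed the test. The median change of the list was 0.31 (A/A tip), 0.66 (A/A mid-tail), -0.28 (D/D tip) and -0.37 (D/D mid-tail), against -0.008, -0.009, -0.012 and -0.014 for all genes. Their summed level ran from 1090 to 1750 CPM at the A/A base, from 867 to 3240 CPM at the A/A mid-tail and from 1050 to 3690 CPM at the A/A tip. In D/D it ran from 1380 to 2400 CPM at the base, from 1390 to 1640 CPM at the mid-tail and from 1390 to 1830 CPM at the tip. No marker of the list was at 0, and the part of these cells in the change of LTBP2 was not tested. Smooth muscle was not alone in this. Skeletal muscle markers, summing to at most 30.9 CPM with MYH1 and MYH2 at 0 in at least 1 sample, were positive for 5 of 6 in A/A and 1 of 6 in D/D at both distal positions. Wool follicle markers ran the other way, with 0 of 10 positive in A/A and 7 of 10 in D/D at both positions and a median difference of 0.97 at the tip. Their summed level in A/A was 11200 to 19400 CPM at the base, 2810 to 13900 CPM at the mid-tail and 916 to 17100 CPM at the tip, and in D/D 13700 to 19400, 17000 to 17300 and 15000 to 29300 CPM. No marker of these 2 lists passed, and their part was not tested either.

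LTBP3, needed for TGF-beta storage in bone and tooth, showed no change with an unadjusted p under 0.05 in any comparison. Its levels over the 7 rams were 63.8 to 110 CPM at the base (median 83.1), 50 to 125 CPM at the mid-tail (median 74.8) and 61.6 to 85.6 CPM at the tip (median 75.8). The extremes were both at the mid-tail of A/A rams, the lowest in ram 871784 with its unequal libraries and the highest in ram 871772.

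LTBP4 had 126, 111, 125 and 116 CPM at the A/A base and 178, 138 and 103 CPM at the D/D base. The tip gave 189, 78.8, 77.4 and 68.9 CPM in A/A and 75.7, 99.7 and 70.2 CPM in D/D. A/A ram 835507 was the 1 ram that was higher at the tip than at its base. The change over the 7 rams was -0.55 (SE 0.21, adjusted p = 0.167), with 6 of 7 rams lower (exact sign-flip p = 0.0781), and in D/D rams it was -0.75 (SE 0.32, adjusted p = 0.341).

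FBLN5, which tethers elastin to microfibrils and to cells, and MFAP4, which binds elastin and microfibrils, had no position change with an unadjusted p under 0.05. FBLN5 lay between 27.4 and 59.8 CPM at the base, 40.3 and 54.8 CPM at the mid-tail and 34.9 and 65.0 CPM at the tip. For MFAP4 the ranges were 19.4 to 76.5 CPM, 21.6 to 101 CPM and 36.6 to 82.6 CPM. In A/A rams 3 of 4 had more of either gene at the tip than at the base, and in D/D rams 1 of 3 for FBLN5 and 2 of 3 for MFAP4. The changes that had neither an unadjusted p under 0.05 nor a log2 change of 0.58 or more spanned -0.35 to 0.45 at the A/A tip (5 genes), -0.54 to -0.06 at the D/D tip (4 genes), -0.07 to 0.576 at the A/A mid-tail (8 genes) and -0.56 to 0.04 at the D/D mid-tail (7 genes).

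MFAP5, a small glycoprotein that binds fibrillin, fell towards the tip. The base values were 56.8, 145, 90.8 and 47.9 CPM in A/A and 108, 81.5 and 111 CPM in D/D. The mid-tail gave 78.4, 115, 73.9 and 54.6 CPM in A/A and 82.0, 71.3 and 74.8 CPM in D/D, and the tip 28.8, 67.2, 51.1 and 48.9 CPM in A/A and 46.6, 63.1 and 44.8 CPM in D/D. From base to tip 6 of 7 rams were lower, and A/A ram 871932, with the lowest base, was level. From mid-tail to tip all 7 rams were lower, and there the exact sign-flip p was 0.0156, the smallest that 7 rams allow, among 30 such tests. The means over the 7 rams were 91.5 ± 33.3 CPM at the base, 78.6 ± 18.3 CPM at the mid-tail and 50.1 ± 12.6 CPM at the tip (SD, n = 7).

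The fitted change of MFAP5 at the tip was -0.71 in A/A (SE 0.20, adjusted p = 0.0961) and -0.96 in D/D (SE 0.24, adjusted p = 0.0798), and the difference of the genotypes was -0.24 (SE 0.31, adjusted p = 0.891). From mid-tail to tip it was -0.64 over the 7 rams (SE 0.16, adjusted p = 0.19). The call over the 7 rams was lost without D/D ram 871787 (-0.78, adjusted p = 0.0508) and without D/D ram 871869 (-0.76, adjusted p = 0.0506). The 2 libraries of a ram and position differed by a median of 0.626 in log2 for MFAP5 over 20 pairs, the largest such difference among the 10 genes.

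**Figure D3:**
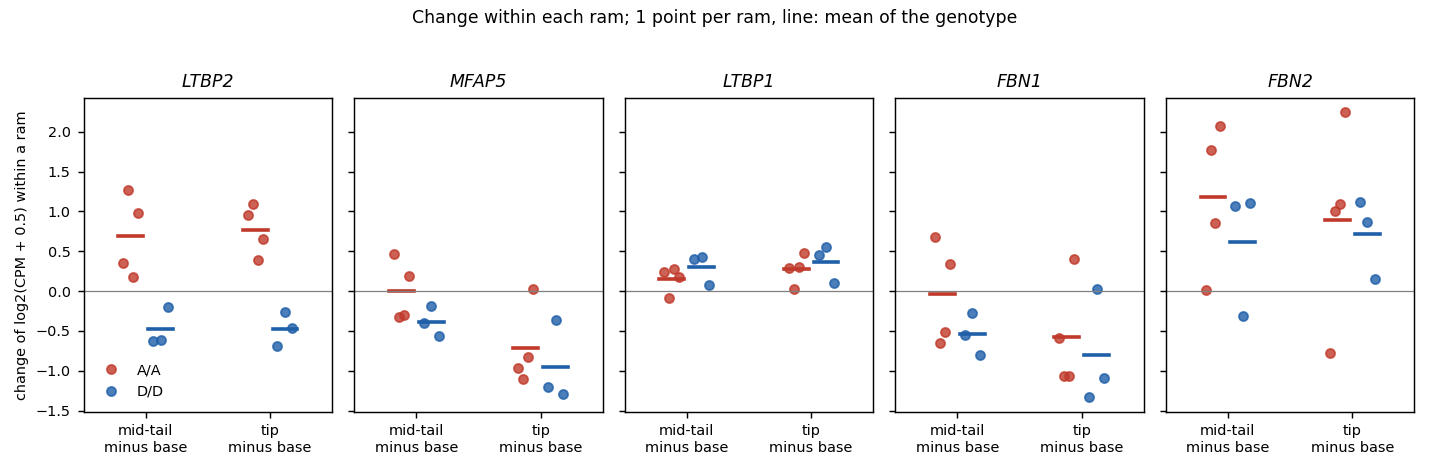
Change in log2(CPM + 0.5) from the base to the mid-tail and to the tip within each ram, with 1 point per ram (A/A red, D/D blue) and a line at the mean of the genotype. For LTBP2 the A/A points (0.388 to 1.089 at the tip) all lie above 0 and the D/D points (-0.684 to -0.258) all below, and for LTBP1 the 7 tip points lie above 0.

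Several fibroblast markers fell in the same direction as MFAP5. From base to tip over the 7 rams, 3 of 9 dermal fibroblast markers passed, all lower, and these were the collagen genes COL1A1 (-1.25), COL3A1 (-1.12) and COL5A1 (-0.69). Of 6 adventitial fibroblast markers 4 passed, all lower, namely PI16 (-1.41), DPP4 (-0.91), SCARA5 (-1.85) and CLEC3B (-1.04). Of all genes, 4.52% passed in this comparison. Not every marker fell: 2 of the 9 dermal markers had a positive change (up to 0.43), as did 1 of the 6 adventitial markers (0.34). The summed level of the 9 dermal markers ran from 12200 to 20700 CPM in A/A and 9490 to 16400 CPM in D/D at the base, and from 2290 to 12300 CPM and 5730 to 12500 CPM at the tip. For the 6 adventitial markers it was 316 to 540 CPM and 438 to 502 CPM at the base and 193 to 278 CPM and 193 to 305 CPM at the tip. Base and tip did not overlap, by a narrow margin (305 against 316 CPM), and the share of all genes separated like this was not counted. No marker of either list was at 0, and their part in the values of MFAP5 and FBN1 was not tested. FBN1 and MFAP5 varied together, with a correlation of 0.932 over the 21 ram sums after each ram's mean was taken off. These points share libraries, and the value is a description.

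Between the genotypes at 1 position, no gene of the 10 passed. A/A was compared with D/D on 7 ram sums per position, and no gene of the table passed at the base (0% of 17738), the mid-tail (0% of 17996) or the tip (0% of 17842) with edgeR. At an unadjusted p under 0.05 there were 567, 1014 and 1824 genes, of the 10 there were 3, 1 and 1, and DESeq2 on the same sums called 18, 31 and 67 genes, none of them among the 10. LTBP2 was lower in A/A than in D/D at the base (-0.64, SE 0.21, unadjusted p = 0.0116, adjusted p = 1) and higher at the mid-tail (0.56, SE 0.23, unadjusted p = 0.0331, adjusted p = 0.848) and the tip (0.62, SE 0.21, unadjusted p = 0.0187, adjusted p = 0.458). At the base, ELN had -0.65 (SE 0.27, unadjusted p = 0.0403) and MFAP4 -0.82 (SE 0.31, unadjusted p = 0.0235), both with an adjusted p of 1. MFAP4 stood there at 19.4, 52.2, 31.9 and 36.4 CPM in A/A and at 76.5, 64.4 and 45.2 CPM in D/D, and the genotypes overlapped. FBN2 had 0.75 at the mid-tail (SE 0.64, adjusted p = 0.887), with A/A rams both above and below the D/D rams. The remaining genes lay between -0.43 and 0.10 at the base, -0.33 and 0.46 at the mid-tail and -0.44 and 0.38 at the tip.

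Other genes of the pathway were described for the tip against the base over the 7 rams, beside the 4.52% of all genes that passed there and a median change of -0.016 for all genes. The list for elastic fibre assembly, which holds further microfibril proteins, cross-linking enzymes and matrix partners, had 31 tested genes. None passed as higher, 8 passed as lower, and 27 had a negative change, with a median of -0.30. LOXL4, a lysyl oxidase that cross-links elastin and collagen, had the largest fall and the smallest p (-2.77, SE 0.30, adjusted p = 0.000134). In order of p it was followed by tenascin-X (TNXB, -2.22), a collagen-binding protein of skin, EMILIN2 (-1.14), a glycoprotein of elastic fibres, and ADAMTSL4 (-0.87), a microfibril-binding protein. The other 4 were FBN3, FBLN1, FBLN2 and TGM2, named after their values were seen, at -1.02 to -0.68. Within the genotypes, 3 of the 31 passed as lower in A/A and 4 in D/D, beside 1.63% and 0.566% of all genes. LOXL4, TNXB and EMILIN2 were among both.

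Of 26 genes for latent TGF-beta and its activation, 1 passed as higher and 1 as lower over the 7 rams. The changes were positive for 16 and negative for 10, with a median of 0.06. Thrombospondin-1 (THBS1), an activator of latent TGF-beta, rose (0.52, SE 0.13, adjusted p = 0.0371), and ACVRL1, a receptor of the family found on endothelium, fell (-0.88, SE 0.17, adjusted p = 0.00737). TGFB2 (0.30, adjusted p = 0.205) and the integrin subunit gene ITGAV (0.40, adjusted p = 0.226) did not pass. THBS1 also passed in A/A rams alone (0.82, SE 0.18, adjusted p = 0.0302), the 1 gene of the list to do so, beside 1.63% of all genes. None passed in D/D rams, where 0.566% of all genes did and THBS1 had 0.22 (SE 0.20). For the difference between the genotypes at the tip, 0 genes of the list passed.

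The list for elastin degradation mixes enzymes with their inhibitors, such as the TIMP genes, so its counts and median give no direction for degradation. Of its 22 genes 16 were tested, and 2 passed as lower over the 7 rams, with a median of -0.29. These were the gelatinase gene MMP2 (-1.11, SE 0.21, adjusted p = 0.00648) and NTN4 (-0.75, SE 0.15, adjusted p = 0.00846), a laminin-binding netrin and not a protease. CTSL (-0.61, adjusted p = 0.0535) and the elastase gene MMP12 (-1.85, adjusted p = 0.0552) did not pass. MMP7 passed in A/A rams as higher (1.29, SE 0.27, adjusted p = 0.0278), and MMP2 and NTN4 passed there as lower, beside 1.63% of all genes. None passed in D/D rams, where 0.566% of all genes did. The D/D changes of MMP2 (-0.84), NTN4 (-0.66) and MMP7 (0.03) had the same signs as in A/A. For the difference between the genotypes at the tip, 0 genes of the list and 0% of all genes passed.

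**Figure D4:**
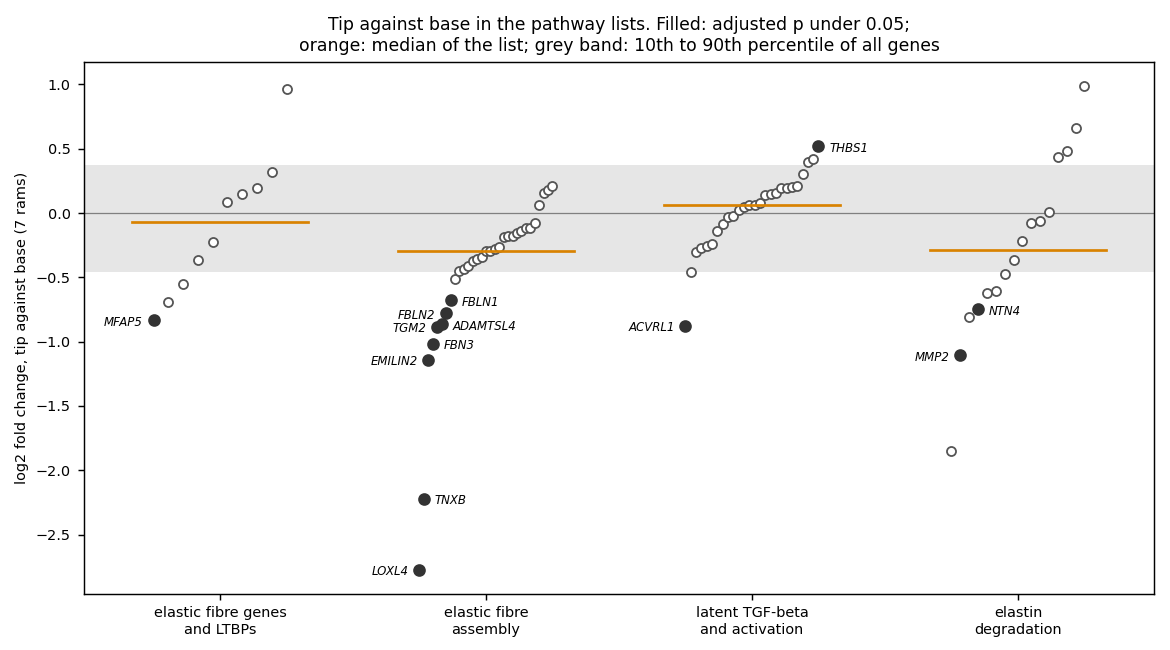
Log2 fold change of the tip against the base over the 7 rams for the 10 genes and for the genes of 3 lists of the pathway, with 1 point per gene, filled where the adjusted p was under 0.05, a line at each list's median and a grey band from the 10th to the 90th percentile of all genes (-0.46 to 0.37). The 8 filled points of the assembly list are all below 0, down to -2.77 for LOXL4, and MFAP5 is the only filled point among the 10 genes.

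The genes whose level followed each member most closely were sought among 10850 genes of at least 5 CPM, over the 21 ram sums with each ram's mean taken off. For LTBP2 they included PDGFB (r = 0.904) and the smooth muscle actin gene ACTG2 (0.887). MFAP5 went with APBB1IP (0.966), LVRN (0.954) and CHRDL1 (0.932), and FBN1 with FSTL1 (0.964), MFAP5 and PROS1 (0.920). FBN2 was closest to DRC1 (0.846), ELN to ANGPTL2 (0.954), LTBP1 to HEY2 (0.927), LTBP3 to ERCC2 (0.968), LTBP4 to GSN (0.969), FBLN5 to CXCL12 (0.942) and MFAP4 to UBE2E2 (0.913). Among the members themselves, LTBP3 and LTBP4 had 0.761, ELN and LTBP4 0.733, and LTBP1 stood against both LTBP3 (-0.658) and LTBP4 (-0.624). These are descriptions over sums that share libraries and depth.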

How the data were processed

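Skin RNA was bound to oligo(dT) beads, made into libraries with the CorALL kit and sequenced as read pairs on an Illumina instrument. Per the study's methods, reads were checked with FastQC 0.11.9, aligned with ContextMap 2 and BWA to ARS-UI_Ramb_v3.0 and counted by strand per RefSeq gene with featureCounts, whose version is not given in the sources used here. The authors deposited raw read counts for 41 libraries and 31182 genes, and all 41 columns were used. The tail-tip columns, entered here as estimated counts in label only, were raw read counts made with featureCounts before the authors deposited them. They were whole numbers and the same kind of measurement as the base and mid-tail columns.

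Counts were summed per ram and position (21 sums) and fitted with edgeR 4.0.16 (R 4.3.3): TMM scaling, edgeR's own low-count filter, quasi-likelihood test, Benjamini-Hochberg adjustment over all genes. The position fit held genotype by position with the ram as block. The value for the 7 rams is the mean of the A/A and D/D changes. A/A and D/D were compared on 7 sums per position. The pairing comes from the ram numbers, and in 20 of 21 pairs of sums from one ram the deviations from the group means correlated above 0.1 (median 0.473). Exact permutation tests used log2(CPM + 0.5). They were run for all 30 pairs of a gene and a position change, and their p-values are not corrected for that number.

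The member genes, pathway lists and marker lists (smooth muscle, endothelium, dermal and adventitial fibroblast, tendon, cartilage and bone, keratinocyte, wool follicle, adipocyte, skeletal muscle, immune and melanocyte) were chosen with earlier results of these data known. A member is given with its own statistics where the unadjusted p was under 0.05 or the log2 change was at least 0.58, other members by their range, and lists by counts and the 4 genes with the smallest p. Some results are not reported here. Alternatives were DESeq2 1.42.0, single libraries, other scalings and filters, no block, each genotype alone and each ram left out. The scripts were tested on simulated data. Whether the 2 libraries of a ram and position came from separate skin pieces is not given in the sources used here. The p-values of position changes measure how changes within a ram vary from ram to ram, with the spread estimated over both genotypes together. Those of A/A against D/D at a position measure the spread between rams.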

Additional observations from a re-analysis of the deposited data

Results flagged for a closer look

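The change of LTBP2 from base to tip differed between the genotypes by -1.24 in log2 (D/D minus A/A), with every A/A ram higher and every D/D ram lower at the tip. From base to mid-tail the difference was -1.171, again with all rams of a genotype on one side. These were 2 of 30 pairs of a gene and a position change that were looked at for opposite directions, both share the base samples, and the direction that singled them out is no support for it. In the fit over all genes neither difference passed with edgeR (adjusted p = 0.5 and 0.822).

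Among 30 groups of 4 A/A rams (10 genes at 3 positions), 2 held a ram far from the others by Dixon's gap criterion, which by its construction flags about 1 group in 20 when rams differ by chance alone. At the tip, LTBP4 stood at 189 CPM in ram 835507 against 68.9 to 78.8 CPM in the other rams. At the base, FBLN5 stood at 59.8 CPM in ram 871772 against 27.4 to 32.4 CPM. Both tip libraries of ram 835507 stand apart from the rest, and their part in the LTBP4 value was not tested.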

How the results depend on the processing

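Single genes were followed under alternatives only for 32 results with an unadjusted p under 0.05 or a log2 change of at least 0.58. Of these 554 values, 501 kept their direction and their side of the threshold, 11 lost their call, 42 gained one and 0 changed direction. Most small changes were left out by this choice and the alternatives reuse the same libraries, so few reversals could arise and their absence is no support. RLE scaling, library totals and no low-count filter changed no count of the 10 genes that passed. At the A/A tip, where 1 gene passed, the count was 2 with DESeq2 on ram sums and 2 with DESeq2 on single libraries, 0 without the replicate block for the ram (LTBP2 adjusted p = 0.217), 0 with each genotype fitted on its own (0.143) and 0 to 1 with 1 ram left out. At the D/D tip, where 0 passed, it was 1 with DESeq2 on sums, 1 with edgeR and 3 with DESeq2 on single libraries, 2 with D/D fitted on its own (LTBP4 and MFAP5) and 0 to 1 with 1 ram left out (MFAP5 without ram 835507, adjusted p = 0.0497). For the 7 rams at the tip, where 1 passed, it was 4 with DESeq2 on sums, 4 with edgeR and 5 with DESeq2 on single libraries, 2 with the library number as replicate block, 2 with a filter of 1 CPM in 3 sums, 0 without the replicate block for the ram (MFAP5 adjusted p = 0.0979), 2 without library 2 of the mid-tail of ram 871784 (chosen after seeing the data) and 0 to 2 with 1 ram left out. The genes gained there were FBN1 without ram 871868 (adjusted p = 0.0499) or 871932 (0.0304), LTBP1 without ram 871772 (0.0337) and FBN2 without ram 835507. At the A/A mid-tail, where 0 passed, the count was 1 with DESeq2 on sums, 2 with edgeR and 2 with DESeq2 on single libraries and 1 with the library number as replicate block. It was 1 with either tool on single libraries for the 7 rams at the mid-tail and for the difference at the mid-tail, 1 with DESeq2 on sums from mid-tail to tip, 1 with DESeq2 on sums and with either tool on single libraries for the difference at the tip (LTBP2) and 1 with DESeq2 on single libraries between the genotypes at the tip (LTBP2). The cause was not tested.

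Single libraries of a ram are not independent rams, so calls on them count 1 ram more than once. Over all genes, the 878 calls for the 7 rams at the tip became 1501 with DESeq2 on sums, 2237 with edgeR and 2625 with DESeq2 on single libraries, 122 without the replicate block and 299 to 1108 with 1 ram left out. The 317 calls at the A/A tip became 836, 1337, 1711 and 18, or 80 with A/A on its own, and 68 to 286 with 1 ram left out. The 110 calls at the D/D tip became 525, 975, 1285 and 2, or 854 with D/D on its own and 170 with no low-count filter, and 1 to 206 with 1 ram left out. Mid-tail counts of 5 in A/A, 0 in D/D and 26 over the 7 rams became 146, 40 and 265 with DESeq2 on sums, and the 5 from mid-tail to tip became 124. With 3 or 4 rams per genotype the design limits what can be told apart, and FBN2, at 17 to 370 reads in a ram sum, is the gene most limited by depth.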

Other observations

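Marker genes of other cell types changed along the tail beside the fibroblast lists. From base to tip over the 7 rams, 4 of 6 tendon markers passed, all higher, beside 4.52% of all genes. They were TNMD (1.85), MKX (1.13), THBS4 (0.87) and COMP (3.03). The summed level of the 6 tendon markers was 47.9 to 75.5 CPM at the base and 83.7 to 145 CPM at the tip. Among 7 tested cartilage and bone markers HAPLN1 passed as higher (1.68), and among 7 keratinocyte markers KRT1 did (1.33). Lower at the tip were 2 of 8 adipocyte markers (ADIPOQ at -1.97 and CIDEC at -1.96), 1 of 6 immune markers (CSF1R at -0.77) and 1 of 6 melanocyte markers (DCT at -1.30). None of 10 smooth muscle, 9 endothelium, 10 wool follicle and 6 skeletal muscle markers passed in that comparison (edgeR, adjusted p under 0.05).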
